A study of Mus musculus with 4 samples.

Results

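The genes described here are 9 hormone receptors and regulators of hormone-sensing luminal cells of the mammary gland, namely Esr1, Pgr, Prlr, Foxa1, Cited1, Tbx3, Gata3, Stc2 and Greb1. They were taken by name, through every probe set of the array that the platform annotation assigns to 1 of these symbols alone. Such probe sets were found for 8 of the 9 genes, among 17097 genes in all, and numbered 17. Prlr, the receptor for prolactin, had none and is not analysed here. The brightest probe set of a gene by its mean over the arrays represents the gene, and the dimmer ones are given beside it.

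The samples are mouse mammary gland cells sorted 3 days after transplantation, with RNA from 50 sorted cells on each of 4 arrays. In the BC alone group, which the labels call multipotent, 10000 BC cells were transplanted without LC cells. In the BC and LC control group, called unipotent, 2000 BC cells were transplanted with 8000 LC cells. The labels do not spell out BC and LC, which in work on this gland commonly stand for basal and luminal cells. The labels give no strain, age, genotype, gate of the sort or number of animals for the 2 arrays of each group, so p-values rest on array-to-array spread that may be technical. The number of BC cells and the presence of LC cells differ together between the groups and cannot be told apart.

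Estrogen and progesterone act in the mammary gland through nuclear receptors, encoded by Esr1 and Pgr, which bind DNA and turn genes on or off once they hold their hormone. Only a part of the luminal cells carries them, and these cells pass the hormone signal on to their neighbours through secreted factors such as amphiregulin, Wnt4 and RANK ligand. FOXA1 opens chromatin for the estrogen receptor, GATA3 and TBX3 are transcription factors of the luminal lineage, CITED1 is a coactivator of the estrogen receptor, and STC2 and GREB1 are products of estrogen-responsive genes, known as such mainly from human breast cancer cells. Basal cells of the resting gland largely lack the estrogen receptor, whereas stromal fibroblasts of the mouse gland can carry it.

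Control replicate 2 stood apart from the other arrays. Over probe sets, which are not independent, Pearson's r of this array with the others was 0.915 to 0.919, and that among the other 3 was 0.969 to 0.973. The SD of its log2 values was 1.44, against 1.90 to 1.92 on the others. The median of 8 basal markers was 9.98 and 9.64 in BC alone and 9.77 on control replicate 1, but 5.69 on control replicate 2. Trp63, the transcription factor p63 of basal cells, had 8.74 and 8.76 in BC alone, versus 8.81 and 5.20 on the 2 controls. Results that rest on this array are given with and without it.

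The 8 measured genes did not share one pattern over the arrays. Esr1, Gata3 and Tbx3 were higher on both BC alone arrays than on both control arrays. Foxa1, Cited1, Stc2 and Greb1 had their highest value on control replicate 2. Pgr was highest on control replicate 1. The name hormone-sensing luminal therefore describes how the genes were grouped and not a pattern they had in common on these arrays.

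**Figure D1:**
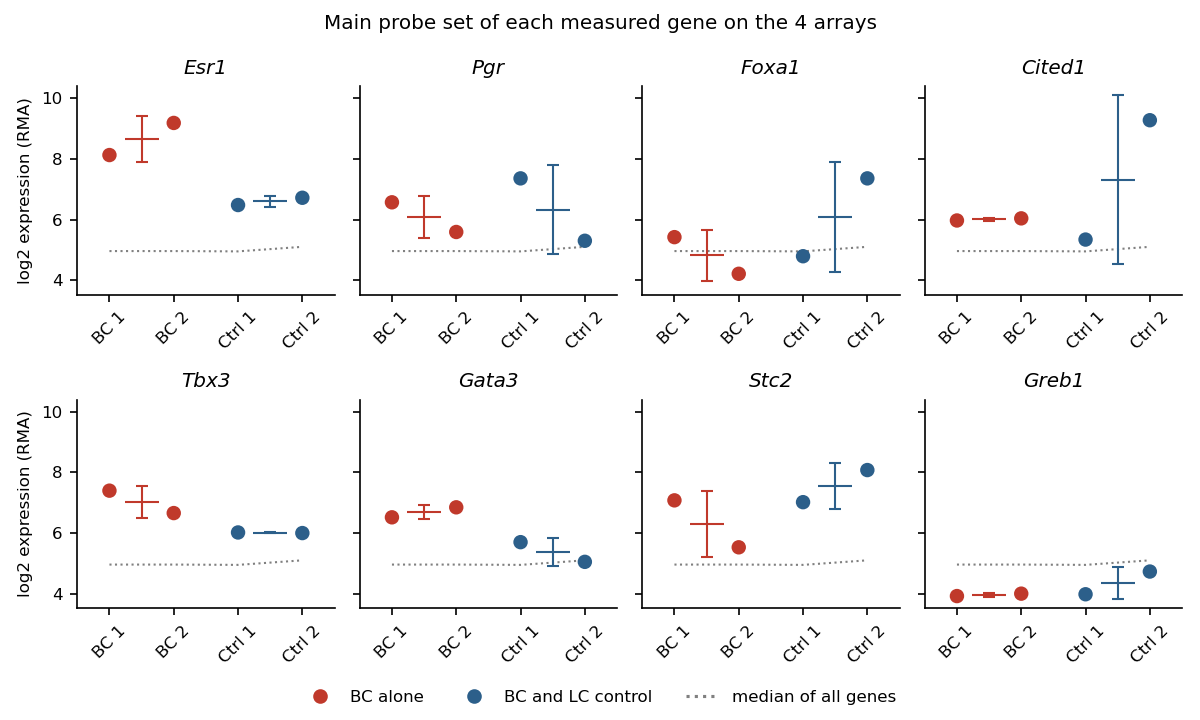
Log2 expression (vertical axis) of the main probe set of each measured gene on the 4 arrays (horizontal axis), with BC alone in red and the BC and LC control in blue. Bars show the mean and SD of 2 arrays and the dotted line the median of all genes. Esr1, Tbx3 and Gata3 lie higher on both BC alone arrays, whereas Foxa1 and Cited1 reach 7.36 and 9.28 on control replicate 2 only.

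Promoters are shown for Esr1, the member with the largest difference between the groups, and for Foxa1, Cited1 and Stc2, which were highest together on control replicate 2. Each run is 300 bases from RefSeq (GRCm38.p6), from 250 bases before to 50 after the most upstream start listed for the gene, written 5′ to 3′ on the strand of the gene. Capitals mark GGTCA or its reverse complement TGACC, 1 arm of the estrogen response element, searched on both strands.
Esr1 (chr10:4611739-4612038, plus strand): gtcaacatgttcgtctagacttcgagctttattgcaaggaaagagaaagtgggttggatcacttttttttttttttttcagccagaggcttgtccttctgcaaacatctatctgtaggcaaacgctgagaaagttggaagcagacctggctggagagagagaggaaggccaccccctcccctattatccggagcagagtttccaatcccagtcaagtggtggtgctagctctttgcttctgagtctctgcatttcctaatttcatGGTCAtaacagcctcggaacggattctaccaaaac
Foxa1 (chr12:57546062-57546361, minus strand): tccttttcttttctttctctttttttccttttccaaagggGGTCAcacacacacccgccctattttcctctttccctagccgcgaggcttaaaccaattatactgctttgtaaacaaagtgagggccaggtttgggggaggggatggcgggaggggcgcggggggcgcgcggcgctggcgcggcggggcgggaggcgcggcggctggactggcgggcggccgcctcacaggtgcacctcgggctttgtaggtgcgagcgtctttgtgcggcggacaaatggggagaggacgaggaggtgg
Cited1 (chrX:102252132-102252431, minus strand): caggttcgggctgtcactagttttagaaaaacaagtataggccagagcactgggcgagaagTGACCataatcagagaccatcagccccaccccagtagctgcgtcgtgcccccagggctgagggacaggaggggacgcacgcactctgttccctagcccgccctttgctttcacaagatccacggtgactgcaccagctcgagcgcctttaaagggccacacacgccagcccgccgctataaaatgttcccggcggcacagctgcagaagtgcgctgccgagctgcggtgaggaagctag
Stc2 (chr11:31370012-31370311, minus strand): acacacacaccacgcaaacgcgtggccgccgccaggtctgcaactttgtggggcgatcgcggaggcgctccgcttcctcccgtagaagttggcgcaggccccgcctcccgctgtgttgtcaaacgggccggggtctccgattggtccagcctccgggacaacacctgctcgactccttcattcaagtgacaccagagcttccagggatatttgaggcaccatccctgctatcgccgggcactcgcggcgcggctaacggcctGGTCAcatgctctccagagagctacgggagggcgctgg
Each of these windows held 1 such arm. RefSeq windows were found for 8 of the 9 genes, 14 in all, counting every listed start, and 8 of the 14 held the arm, as did 40.5% of all 32851 windows. The full element, with both arms, was in 0 of the 14 and in 0.070% of all windows. The forkhead motif TGTTTAC, which FOXA1 can bind, was in 2 of the 14, namely the Foxa1 window above, where it stands as gtaaaca, and 1 of Prlr, against 3.65% of all windows. These matches describe the letters of the windows only.

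Esr1, which encodes estrogen receptor alpha, had the largest difference of the 8 genes. Its log2 values were 8.13 and 9.19 in BC alone, versus 6.48 and 6.72 in the control. Both BC alone arrays lay above both control arrays, which were close to each other on the deposited scale. By percentile among all genes the 2 control arrays stood further apart, at 71.9 and 83.9. How far control replicate 2 lay below the highest array depended on the scaling. Control replicate 2 differed from the highest array by -2.47 as deposited. The value was -1.435 after repeated quantile normalization and -1.36 after cyclic loess. The means were 8.66 ± 0.75 in BC alone and 6.60 ± 0.17 in the control (n = 2 each, SD), a difference of 2.06 ± 0.44 (SE, 95% interval 0.96 to 3.16), or 4.17-fold. Adjusted over all 17097 genes it did not pass limma's test (adjusted p = 0.842, unadjusted p = 0.0042). The difference was 2.18 and 1.94 when control replicate 2 or 1 was left out, and 1.53 and 2.59 when BC alone replicate 2 or 1 was left out. After repeated quantile normalization it was 1.44. Among all genes on an array, Esr1 stood at the percentile 88.3 and 94.7 in BC alone and 71.9 and 83.9 in the control, ranks that also depend on how well each probe set binds.

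Markers of other cell types also differed between the groups. Most of those of fibroblasts and 3 of 7 of endothelium were higher on both BC alone arrays than on both control arrays. Most of those of macrophages had a lower mean in BC alone. Of 12 fibroblast markers 10 had a higher mean in BC alone, as did 46.8% of all genes, and 8 were at least 2-fold higher with no overlap, against 4.79% of all genes. Without control replicate 2 all 12 had a higher mean, with a median difference of 0.95 instead of 1.84. After repeated quantile normalization 11 of 12 were higher, at a median of 1.20, and after cyclic loess 10 of 12, at 1.05. Their median level was 7.56 and 7.84 in BC alone, versus 6.39 and 5.59 on the 2 control arrays. Thy1, a surface protein of fibroblasts and T cells, had 8.65 and 8.39 in BC alone versus 6.57 and 5.92 in the control. Dcn, the collagen-binding proteoglycan decorin, had 10.84 and 11.16 against 9.91 and 8.02. Pdgfra, a defining receptor of mesenchymal cells, was dim on each array, with 4.06 and 3.57 in BC alone and 3.58 and 3.68 in the control. All 7 endothelial markers had a higher mean in BC alone, at a median difference of 0.22, or 5 of 7 at 0.74 without control replicate 2, and 5 of 7 were higher after repeated quantile normalization. Tek, the angiopoietin receptor gene, had 5.77 and 5.46 in BC alone versus 3.67 and 3.92 in the control, and with Emcn and Cdh5 it was 1 of 3 that were at least 2-fold higher with no overlap. Pecam1, another defining endothelial marker, had 7.63 and 6.82 in BC alone versus 7.17 and 7.14 in the control. Of 6 macrophage and leukocyte markers 5 had a lower mean in BC alone, at a median difference of -0.61, and all 6 did without control replicate 2, at -0.65. Lyz2, a macrophage lysozyme, and Cd74, the invariant chain of antigen presentation, were at least 2-fold lower with no overlap, against 0.895% of all genes, with 6.12 and 6.93 versus 7.46 and 7.70 for Lyz2 and 5.99 and 6.92 versus 8.36 and 7.25 for Cd74. Cd68, also on this list, had a higher mean in BC alone, with 6.91 and 7.31 versus 7.34 and 6.11 in the control. Ptprc, a marker of all leukocytes, was dim and overlapped, with 2.91 and 3.27 in BC alone versus 4.21 and 3.26 in the control. Adipocyte markers were represented by 3 genes, of which Adipoq, the adipocyte hormone adiponectin, had 2.94 and 3.58 in BC alone and 2.97 and 3.41 in the control, while Fabp4, a fatty acid binding protein also found in endothelium, had 9.03 and 9.0 versus 8.11 and 8.27. The part of other cell types in the Esr1 result was not tested, and in sorted pools a different share of cells of a type and a different amount of RNA per cell cannot be told apart.

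The genes most like Esr1 were Twist1 and Fap. After each gene's own mean was subtracted, they lay at a root mean square distance of 0.096 and 0.17 log2 from it over the 4 arrays. Twist1, a transcription factor of mesenchymal cells, had 5.62 and 6.59 in BC alone and 4.14 and 4.29 in the control. Fap, a protease of activated fibroblasts and 1 of the 12 fibroblast markers, had 5.42 and 6.83 against 3.83 and 3.91. Both were picked for closeness to Esr1 over the 4 arrays, so the order of the arrays they share with it is no further result. With 4 arrays many of the 17097 genes can come close by their number alone.

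Pgr, the progesterone receptor and in mammary epithelium a target of the estrogen receptor, did not follow Esr1. It had 6.57 and 5.59 in BC alone, versus 7.36 and 5.30 in the control. The 2 control arrays were the highest and the lowest of the 4, and the groups overlapped. The difference was -0.25 ± 0.75 (SE, 95% interval -2.12 to 1.62, adjusted p = 0.912 in limma), so a difference of 2-fold or more in either direction lies within the interval. Leaving out control replicate 2 gave -1.28, and leaving out control replicate 1 gave 0.78. Of its 2 dimmer probe sets, one had 4.49 and 5.87 in BC alone versus 4.57 and 4.14 in the control, and the other 4.16 and 4.07 against 3.88 and 4.70. The 3 probe sets thus differed by -0.25, 0.83 and -0.18, and none separated the groups. The genes most like the main probe set of Pgr were Wnt5a, a secreted Wnt ligand, at a distance of 0.11 log2, and Polg2, a subunit of the mitochondrial DNA polymerase, at 0.15.

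Gata3, a transcription factor needed for luminal cells in the mouse, was higher in BC alone. It had 6.52 and 6.85 in BC alone, versus 5.70 and 5.05 in the control. The groups did not overlap, and the lowest value was on control replicate 2. The difference was 1.31 ± 0.37 (SE), or 2.48-fold, with a 95% interval of 0.40 to 2.22 and an adjusted p of 0.842 in limma. It was 0.99 without control replicate 2, and 1.22, 1.44 and 1.13 after repeated quantile normalization, median centring and cyclic loess. GATA3 is also a factor of T and innate lymphoid cells. Of 4 measured markers of these cells, Cd3e, a chain of the T cell receptor complex, had 4.91 and 4.47 in BC alone versus 3.15 and 4.15 in the control, and Cd3g, another of its chains, 3.97 and 3.82 against 3.63 and 4.21. The median of the 4 was 4.45 and 4.23 in BC alone, versus 3.71 and 4.31 in the control, below the median of all genes on each array. As deposited 2 of the 4 had a higher mean, at a median difference of 0.51. Without control replicate 2 all 4 had, at 0.90. All 4 were also higher after repeated quantile normalization, at 0.66, and after cyclic loess, at 0.70. Without control replicate 1, 2 of the 4 were higher, at 0.11. Thy1, given above, is also on this list. Their part in the Gata3 result was not tested.

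Tbx3, a T-box factor required for the first mammary buds in the mouse embryo, was higher in BC alone by its main probe set but not by the next. The main probe set had 7.4 and 6.66 in BC alone, versus 6.02 and 6.0 in the control. The groups did not overlap and the 2 control arrays nearly coincided. The difference was 1.02 ± 0.37 (SE), or 2.03-fold, with a 95% interval of 0.10 to 1.94 and an adjusted p of 0.842 in limma. It was 1.01 without control replicate 2 and 0.65 without BC alone replicate 1. The second probe set, nearly as bright, had 5.93 and 6.11 in BC alone versus 6.98 and 6.08 in the control, a difference of -0.51. The dimmest had 4.21 and 5.59 against 4.09 and 5.28, and differed by 0.22. The mean of the 3 differed by 0.24. The genes most like the main probe set were Champ1 and Gltp, at distances of 0.042 and 0.052 log2, and those most like Gata3 were Siah1b, a ubiquitin ligase gene, and Hmox1, the gene of heme oxygenase, at 0.058 and 0.086.

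Counted together, 3 of the 8 genes, Esr1, Gata3 and Tbx3, were at least 2-fold higher in BC alone with no overlap between the groups, where 4.79% of all genes were. None of the 8 was at least 2-fold lower with no overlap, where 0.895% of all genes were. These counts moved with the setting. Without control replicate 2, Esr1 and Tbx3 were at least 2-fold higher, against 2.19% of all genes, Gata3 was just short of it at 0.99, and Pgr was at least 2-fold lower, against 2.09% of all genes. Tbx3 left the count at 0.70 after repeated quantile normalization and after cyclic loess, and at 0.24 with the mean of its probe sets, where the share of all genes was 1.95%, 1.76% and 2.95%. Stc2 entered the lower count with the mean of its probe sets, against 0.673% of all genes. Without control replicate 1, Cited1, Foxa1 and Stc2 were at least 2-fold lower, against 4.23% of all genes. Esr1, Gata3 and Tbx3 stayed higher there, against 18.1% of all genes. Without BC alone replicate 1 Tbx3 left the higher count, where the share of all genes was 7.17%. In that setting Foxa1 and Stc2 entered the lower one, against 1.31%. Esr1 stayed at least 2-fold higher with no overlap in each of these settings, where the share of all genes ranged from 1.76% to 18.1%. Esr1, Gata3 and Tbx3 were also the 3 of 8 with an unadjusted p under 0.05, as were 3.98% of all genes. The means of most fibroblast and endothelial markers described with Esr1 differed in the same direction as these 3 genes. Of them 7 of 12 and 3 of 7 had an unadjusted p under 0.05 in limma. Most macrophage markers differed in the opposite direction, with 2 of 6 at such a p. Their part was not tested. At an adjusted p of 0.05 in limma 0 of the 8 and 0 of all genes passed, and the share of all genes was 0%. With 2 arrays a group, the smallest p that exact permutation allows is 0.333. The groups did not overlap for 3 of the 8, against 36.4% of all genes. The median difference of the 8 genes was -0.32, and that of all genes was -0.04. Without control replicate 2 the median of the 8 was 0.35, and 5 had a higher mean in BC alone. Over all 4 arrays 3 had, against 46.8% of all genes.

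**Figure D2:**
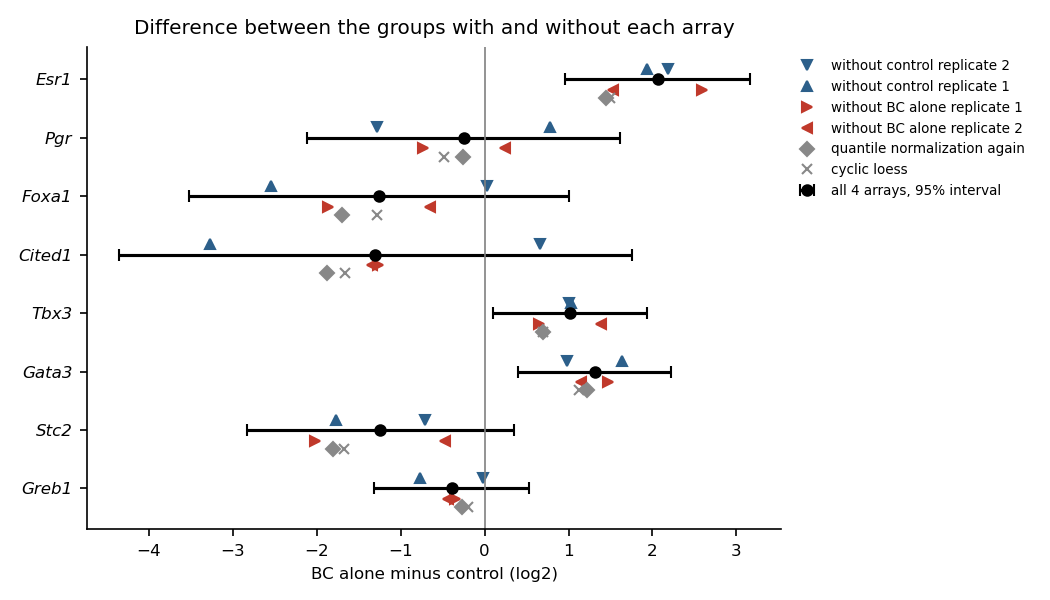
Difference in log2 expression, BC alone minus control (horizontal axis), for each measured gene, with the 95% interval of the fit to all 4 arrays in black. Blue and red triangles leave out 1 control or 1 BC alone array, and grey marks show other scalings. The marks of Esr1, Tbx3 and Gata3 all lie above 0, while those of Foxa1 and Cited1 span 0 according to whether control replicate 2 is included.

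Cited1 was the member with the widest range over the arrays. It had 5.97 and 6.04 in BC alone, versus 5.34 and 9.28 in the control. The BC alone arrays agreed closely, control replicate 1 was the lowest array and control replicate 2 lay 3.24 above the next. The means were 6.01 ± 0.05 in BC alone and 7.31 ± 2.79 in the control (n = 2 each, SD), a difference of -1.31 ± 1.22 (SE, adjusted p = 0.842 in limma). Without control replicate 2 the sign turned, to 0.67. Cited1 was at the percentile 64.9, 65.6 and 56.5 of all genes on the BC alone arrays and control replicate 1 and at 99.0 on control replicate 2. After repeated quantile normalization its lead there was 4.31, and after cyclic loess 3.93.

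Foxa1, the forkhead factor that opens chromatin for the estrogen receptor, had 5.42 and 4.21 in BC alone, versus 4.79 and 7.36 in the control. Control replicate 2 was 1.94 above the next array, and control replicate 1 lay between the BC alone arrays. The difference between the groups was -1.26 ± 0.90 (SE, 95% interval -3.52 to 1.00, adjusted p = 0.842 in limma), and 0.03 without control replicate 2. The genes most like it were Speer4cos, at a distance of 0.12 log2, and Tnfrsf9, a receptor of activated lymphocytes, at 0.14. Those most like Cited1 were Fgb, a chain of fibrinogen, and Aoc1, a diamine oxidase, at 0.22 and 0.23, and Fgb had 6.03 and 5.74 in BC alone and 5.11 and 9.51 in the control.

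Stc2 encodes stanniocalcin 2, a secreted glycoprotein. Its main probe set had 7.08 and 5.53 in BC alone, versus 7.02 and 8.08 in the control. BC alone replicate 1 lay within the control values, so the groups overlapped, and the difference was -1.25 ± 0.64 (SE, adjusted p = 0.842 in limma). The difference was -0.72 without control replicate 2, and -2.02 and -0.47 without the first and the other BC alone array. The second probe set had 6.72 and 6.45 in BC alone versus 5.81 and 8.32 in the control, a difference of -0.48. The dimmest did separate the groups, with 4.5 and 5.05 in BC alone versus 6.33 and 7.15 in the control, and differed by -1.97 ± 0.40 (SE, unadjusted p = 0.0037, adjusted p = 0.843 over all probe sets in limma). All 3 probe sets had their highest value on control replicate 2 and a lower mean in BC alone. The genes most like the main probe set were Sorbs2 and Adam8, at 0.13 and 0.23 log2.

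Greb1, an estrogen-induced partner of the estrogen receptor in human breast cancer cells, was dim on all arrays. Its main probe set had 3.92 and 4.00 in BC alone, versus 3.98 and 4.73 in the control, below the median of all genes on each array. The difference was -0.40 ± 0.37 (SE, adjusted p = 0.842 in limma), and -0.02 without control replicate 2. A second probe set had 3.66 and 3.69 in BC alone versus 3.53 and 5.05 in the control, again highest on control replicate 2. The other 2 differed by 0.18 and 0.05. Detection was not tested, so it cannot be said on which arrays the gene was detected.

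**Figure D3:**
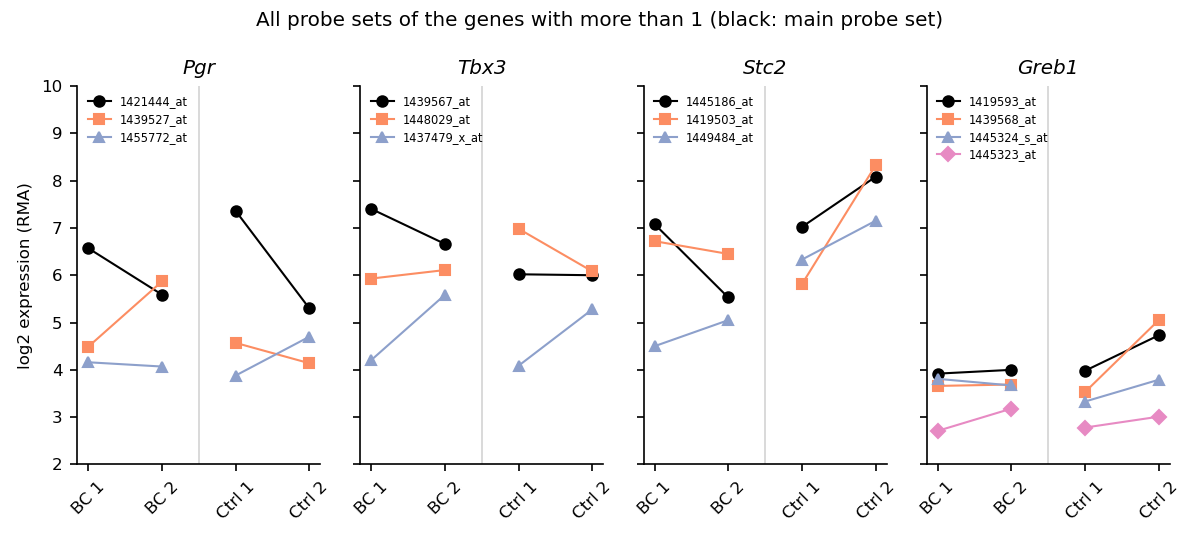
Log2 expression (vertical axis) of every probe set of the 4 genes with more than 1, on the 4 arrays (horizontal axis), with lines joining the 2 arrays of a group and the main probe set in black. All 3 Stc2 probe sets peak on control replicate 2, whereas those of Pgr and Tbx3 do not run together.

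On control replicate 2, 3 of the 8 genes, Cited1, Foxa1 and Stc2, were higher by at least 1 log2 than on any other array, where 2.29% of all genes were. Counting a lead of any size, 4 of the 8 were highest there, against 40.4% of all genes. After repeated quantile normalization, which gives all arrays the same spread, the lead of these 3 genes was 4.31, 2.87 and 2.25, where 4.74% of all genes led by at least 1 log2. After median centring that of Stc2 was 0.76. Gata3, Pgr and Tbx3 had their lowest value on this array, and Esr1 lay 2.47 below its highest.

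Other luminal genes did not all follow on control replicate 2. The keratin gene Krt8 had 10.42 and 10.30 in BC alone, versus 10.16 on control replicate 1 and 8.0 on control replicate 2. Krt18, its partner keratin, had 9.32 and 9.68, versus 9.67 and 7.78. Epcam, an epithelial adhesion molecule, had 9.45 and 10.02 in BC alone, versus 10.11 and 7.54 in the control. Log2 values had a narrower spread on that array, as given above. By percentile among all genes, Krt8, Krt18 and Epcam were at 95.9, 94.7 and 93.1 there. On control replicate 1 they were at 98.1, 96.8 and 98.0. The median of 11 pan-luminal markers was 8.19 and 8.04 in BC alone, versus 8.23 and 7.32 in the control. Of the 11, 5 were lowest and 2 highest on control replicate 2. As deposited 9 of 11 had a higher mean in BC alone, at a median difference of 0.495. After repeated quantile normalization 5 of 11 had, at -0.13. Of 8 luminal progenitor markers 3 were lowest and 1 was highest on control replicate 2. The highest was Ltf, the gene of the milk protein lactoferrin, at 7.32 and 7.47 in BC alone and 7.86 and 9.56 in the control. Among the lowest were Lcn2, the gene of lipocalin 2, at 11.15 and 11.07 in BC alone versus 11.09 and 8.22 in the control, and Csn3, the kappa casein gene, at 10.36 and 10.81 versus 10.71 and 8.38. By percentile Lcn2 and Csn3 were at 99.4 and 99.0 on control replicate 1. On control replicate 2 they were at 96.8 and 97.4. Of 8 basal markers 7 were lowest on this array, and the part of the cell mixture in the high values of Cited1, Foxa1 and Stc2 was not tested.

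**Figure D4:**
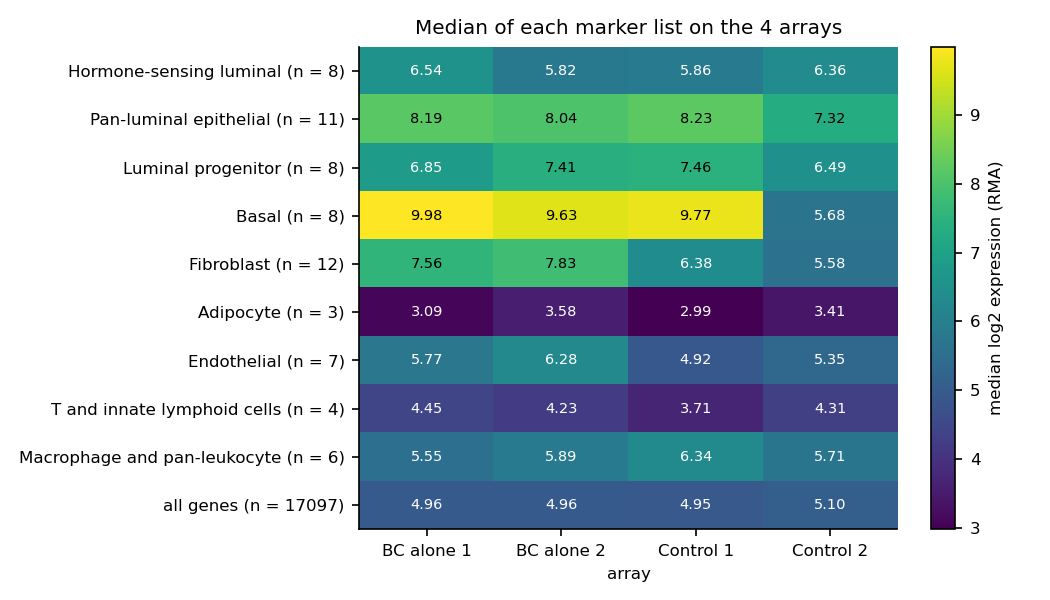
Median log2 expression (colour and printed value) of marker lists (vertical axis, with the number of measured genes) on the 4 arrays (horizontal axis). Basal markers drop to 5.69 on control replicate 2, and fibroblast markers are at 7.56 and 7.84 on the BC alone arrays and at 6.39 and 5.59 on the controls.

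Genes that act with these receptors were described as 4 lists, to be read beside all genes. Of all genes 46.8% had a higher mean in BC alone, and their median difference was -0.04. An unadjusted p under 0.05 in limma was found for 3.98% of all genes. Among 17 measured targets and paracrine partners of the estrogen and progesterone receptors, 9 had a higher and 8 a lower mean in BC alone, with a median difference of 0.29, with 0 passing limma's adjusted test and 0 at an unadjusted p under 0.05. Xbp1, a factor of the unfolded protein response, had 8.32 and 8.77 in BC alone versus 7.92 and 6.52 in the control, and Igfbp4, which binds insulin-like growth factors, had 10.63 and 10.45 against 9.91 and 8.02. Cxcl12, a chemokine made largely by stromal cells, had 9.21 and 8.2 against 7.76 and 4.55. These 3 were among 5 of the 17 at least 2-fold higher with no overlap, against 4.79% of all genes. Without control replicate 2 the differences of Xbp1, Igfbp4 and Cxcl12 were 0.625, 0.63 and 0.945, instead of 1.325, 1.575 and 2.55. The paracrine ligand Wnt4 differed by -0.14 ± 0.36 (SE), from 6.63 and 5.99 in BC alone and 6.31 and 6.59 in the control. Tnfsf11, the gene of RANK ligand, was dim, with 3.97 and 3.74 in BC alone and 3.69 and 4.40 in the control. Areg and Calca had no probe set of their own symbol alone and are not analysed here. The list's median was 0.085 without control replicate 2, with 10 of 17 higher and 6 lower. It was 0.03 after cyclic loess and -0.0025 after repeated quantile normalization.

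Downstream of the prolactin receptor, 13 of 14 measured genes had a higher mean in BC alone, with a median difference of 0.72, with 0 passing limma's adjusted test and 2 at an unadjusted p under 0.05. The kinase gene Jak2 had 7.10 and 6.74 in BC alone versus 6.29 and 5.88 in the control, and differed by 0.84 ± 0.33 (SE). Stat5a, the main transcription factor of prolactin signalling, had 9.18 and 9.02 against 9.06 and 7.17, so that the difference of 0.99 came down to 0.04 without control replicate 2. The feedback inhibitors Socs2 and Socs3 had 8.84 and 8.44 against 8.10 and 6.60, and 8.24 and 7.69 against 6.92 and 5.19. Igf2, an insulin-like growth factor, had 8.48 and 7.10 in BC alone and 5.14 and 6.13 in the control. Socs2, Socs3 and Igf2 were the 3 of 14 at least 2-fold higher with no overlap, against 4.79% of all genes. Without control replicate 2 their differences were 0.54, 1.045 and 2.65, instead of 1.29, 1.91 and 2.155. Elf5, a STAT5-linked factor of secretory luminal cells, had 4.19 and 6.90 against 6.01 and 5.37 and differed by -0.15 ± 0.89 (SE). Without control replicate 2 the list's median was 0.16 and 9 of 14 were higher, and after repeated quantile normalization it was 0.14 with 10 of 14 higher.

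Among 19 other hormone receptors 12 had a higher mean in BC alone, with a median difference of 0.53, with 0 passing limma's adjusted test and 3 at an unadjusted p under 0.05. The median was 0.17 without control replicate 2, with 12 of 19 higher, and 0.17 after repeated quantile normalization, with 13 of 19 higher. Nr2f2, the orphan receptor COUP-TFII, found in stromal and endothelial cells, had 7.14 and 8.03 in BC alone versus 6.16 and 5.72 in the control. The difference was 1.65 ± 0.42 (SE). It was the 1 gene of the 19 at least 2-fold different with no overlap. Of all genes 4.79% were so higher and 0.895% so lower, a share near that of the list. The glucocorticoid receptor gene Nr3c1 had 7.30 and 7.61 against 7.06 and 6.01. Esr2, the gene of estrogen receptor beta, had 4.56 and 5.15 in BC alone versus 4.50 and 5.10 in the control and differed by 0.06 ± 0.39 (SE, 95% interval in limma of -0.91 to 1.02), where Esr1 differed by 2.06. Whether Esr1 differed more than Esr2 was not tested.

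All 13 measured coregulators and chaperones of steroid receptors had a higher mean in BC alone, with a median difference of 0.61, with 0 passing limma's adjusted test and 0 at an unadjusted p under 0.05. The direction depended on control replicate 2 and on the scaling. Without that array 4 of 13 were higher, at a median of -0.02, and after cyclic loess 6 of 13, at -0.01. Nrip1, a corepressor of the estrogen receptor, had 9.55 and 9.34 in BC alone versus 9.45 and 7.35 in the control, and Crebbp, a histone acetyltransferase and coactivator, 10.44 and 10.37 against 10.52 and 8.17. On both, control replicate 1 lay with the BC alone arrays.

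**Figure D5:**
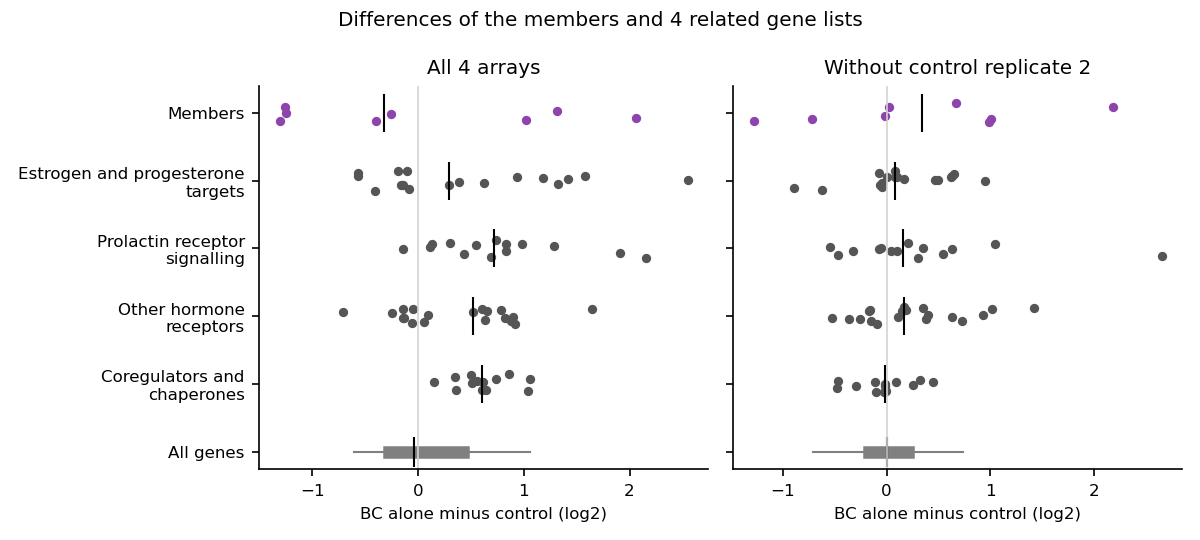
Difference in log2 expression, BC alone minus control (horizontal axis), for the 8 measured members in purple and for 4 related gene lists in grey, with black ticks at the medians, and for all genes as a bar from the 25th to the 75th percentile with a line from the 5th to the 95th. The left panel uses all 4 arrays and the right one leaves out control replicate 2, where the medians of the lists lie between -0.02 and 0.17.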

How the data were processed

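Gene expression in mouse mammary gland cells was measured on Affymetrix arrays, with 2 arrays of BC alone and 2 of the BC and LC control, grouped by the sample titles. The deposited unit is log2 expression, 1 value per probe set, made by the authors with RMA (affy) according to the submitters' processing notes, with no version given. The number of arrays limits the precision. The genome build is not given in the sources used here. No detection calls came with the values.

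Of 45141 probe sets, 28898 had 1 gene symbol in the platform annotation, parts of which are old, 551 several and 15692 none. Each gene was represented by its brightest probe set, giving 17097 genes without any filter on dim signals. The groups were compared with limma 3.58.1 in R 4.3.3 (lmFit and eBayes, 2 residual and 3.50 prior degrees of freedom, two-sided, Benjamini-Hochberg adjustment over all genes, threshold 0.05), and the fit was tested on simulated data. Differences are BC alone minus control, folds are those differences on the linear scale, and RMA values compress large differences. The 2 most alike arrays shared 771 values.

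The members and gene lists were chosen with earlier results of these data known. Set for naming outside the members were 20 genes fixed by name (17 measured). Added to them were up to 4 genes of each list of lowest p that differed at least 2-fold and did not overlap. For each member spanning at least 1 log2, the 2 genes nearest in pattern were also named. Not all genes set for naming are described, and Krt5, Krt14 and Stat5b are among those left out. Adipoq, Fabp4, Cd3g, Dcn, Esr2, Crebbp, Lcn2, Csn3, Pecam1 and Cd68 were named outside these rules, after their values were seen. The alternatives were other scalings, a filter on dim genes, other uses of probe sets, other variance models, a replicate block and leaving out each array.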

Additional observations from a re-analysis of the deposited data

How the results depend on the processing

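Over 13 alternatives the differences of Esr1, Tbx3, Gata3, Stc2 and Greb1 kept their sign, in the ranges 1.44 to 2.59, 0.24 to 1.39, 0.99 to 1.64, -2.02 to -0.47 and -0.77 to -0.02 (12 alternatives for Greb1, which the filter on dim genes removes). Pgr turned to 0.13 with the mean of its probe sets, and without 1 array ranged from -1.28 to 0.78. Without 1 array Foxa1 ranged from -2.545 to 0.025 and Cited1 from -3.28 to 0.67, each positive only without control replicate 2. Genes with an adjusted p under 0.05 in limma numbered 97 with an intensity trend (56 higher, 41 lower, no member) and 108 with the replicate block (94 higher, 14 lower), and 0 in the other alternatives. With the block 1 member passed, Esr1 (adjusted p = 0.016, against 0.234 with the trend, and up to 0.998 over the alternatives), in a fit left with fewer residual degrees of freedom. Whether the replicate numbers pair the arrays cannot be decided from the values. The deviations of same-numbered arrays from their group mean correlated at -0.018 over genes. In the control group these deviations contain the distance of the outlying control replicate 2, which could hide a pairing. Genes at least 2-fold different with no overlap numbered 972 (819 higher, 153 lower), and 614 after repeated quantile normalization (334 and 280), 533 after cyclic loess (301 and 232), 1243 after median centring (1143 and 100), 620 with the mean of probe sets, 1952 over all probe sets, and 732 to 3824 without 1 array (732 without control replicate 2, of which 375 higher and 357 lower, 3824 without control replicate 1, 1502 without BC alone replicate 2). The median difference of all genes was 0.09 after median centring, and -0.04 as deposited. The causes were not tested. With 2 arrays a group, no detection calls and RNA from 50 cells, dim genes such as Greb1 cannot be told from background.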
